A study of Mus musculus with 8 samples.

Results

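The 9 genes described here write, copy, erase or help remove DNA methylation: Dnmt1, Uhrf1, Dnmt3a, Dnmt3b, Dnmt3l, Tet1, Tet2, Tet3 and Tdg. They were chosen by name from the mm10 annotation, which holds 21911 protein-coding genes. For each gene, the peaks counted were those with a summit in the gene body or within 50 kb of its first annotated start site, and 486 of all 661009 peaks qualified. Binding of 4 factors was mapped with Flag CUT&Tag, in which an antibody against an epitope tag brings the transposase Tn5 to the tagged protein and the DNA nearby is cut, tagged and sequenced. All libraries came from MEFs, fibroblasts of the mouse embryo, taken at day 3 of reprogramming, and per the study's methods they came from OG2 mice, which carry an Oct4-GFP reporter, and received the factors by retrovirus. The 8 groups were native Nanog, NanogBiD, native Oct4, Oct4BiD, native Sox2, Sox2BiD, native Nr5a2 and Nr5a2BiD. BiD is the part of SS18 through which it binds the remodelling ATPase BRG1, and was fused to the N-terminus of the factor. The labels name only the tagged factor, and any other factors given to the same cells are not stated. No library of cells without a tagged factor, or with BiD alone, was analysed here. A retroviral culture mixes cells that took up different amounts of vector, and in a peak list over all of them fewer bound cells and weaker binding per cell cannot be told apart.

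Each group holds 1 library, so no difference below has a replicate and none was tested. Intervals are exact 95% intervals that cover counting error only. Each list held between 54794 peaks (native Oct4) and 120594 peaks (Sox2BiD). The lists give no sequencing depth, and summit heights are unscaled tags. As a check on the cell type, 10 fibroblast genes such as Col1a1 and Vim were examined. Between 7 and 10 of them had a promoter peak in each library. Of 8 pluripotency genes, between 0 and 2 did. A peak near a gene is not a measure of its expression.

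In mammals, methyl groups on cytosine in CG dinucleotides are placed by DNMT3A and DNMT3B and copied after replication by DNMT1, which UHRF1 brings to hemimethylated DNA. DNMT3L has no catalytic activity of its own and helps DNMT3A and DNMT3B. The TET enzymes oxidise methylcytosine, and TDG excises the oxidised products so that repair can restore an unmodified cytosine. Loss of methylation at pluripotency genes is a known step of reprogramming from fibroblasts.

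The DNA under the summits is shown first for windows of 101 bases that hold a short motif. The motifs searched, on both strands, were ATGCAAAT (octamer, bound by Oct4), CCATTGTT (SOX), CAAGGTCA (NR5A), GCCATTA (NANOG) and TGANTCA (AP-1, bound by FOS and JUN proteins). The SOX and NANOG letters have the run CCATT in common. The windows were chosen after their values were seen, as the best-scored member peak of each factor that holds its own motif, plus 1 shared region near Uhrf1 and 1 in Dnmt3l. All sequences are mm10 (GRCm38), plus strand, and capitals mark the motif or its reverse complement.
Tet2 upstream, Oct4BiD, octamer, chr3:133581680-133581780: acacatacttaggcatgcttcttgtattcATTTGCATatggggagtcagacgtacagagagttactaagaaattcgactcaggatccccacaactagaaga
Uhrf1 upstream, 6 libraries, octamer, chr17:56266503-56266603: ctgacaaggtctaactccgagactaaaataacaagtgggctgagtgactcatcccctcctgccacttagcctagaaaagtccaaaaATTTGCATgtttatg
Dnmt3a upstream, native Sox2, SOX, chr12:3756704-3756804: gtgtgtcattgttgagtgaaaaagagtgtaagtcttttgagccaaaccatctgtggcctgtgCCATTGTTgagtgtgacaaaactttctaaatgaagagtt
Tet2 upstream, NanogBiD, NANOG, chr3:133560818-133560918: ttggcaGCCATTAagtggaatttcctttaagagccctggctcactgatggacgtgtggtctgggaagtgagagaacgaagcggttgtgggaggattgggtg
Dnmt3a upstream, Nr5a2BiD, NR5A, chr12:3780438-3780538: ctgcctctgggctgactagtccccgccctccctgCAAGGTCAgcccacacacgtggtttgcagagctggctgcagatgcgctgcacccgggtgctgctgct
Dnmt3l intron, native Nr5a2, NR5A, chr10:78061464-78061564: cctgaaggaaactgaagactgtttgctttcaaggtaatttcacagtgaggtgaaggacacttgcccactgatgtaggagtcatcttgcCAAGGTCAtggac

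The octamer window upstream of Tet2 lay under a peak of 85 tags and a score of 616 in Oct4BiD, and no other library had a peak there. The score, taken as deposited, is the p-value of the peak caller as its negative log10 multiplied by 10. The octamer window upstream of Uhrf1 lay in a region with peaks in 6 libraries and also holds a match to AP-1. Native Sox2 had 28 tags over the SOX window, with a score of 150, in a region where 4 libraries, those of Sox2 and Nr5a2, had peaks. NanogBiD had 30 tags over the NANOG window, with a score of 244. Nr5a2BiD had 43 tags over the NR5A window near Dnmt3a, in a region where 7 libraries had peaks. Native Nr5a2 had 43 tags over the window in Dnmt3l.

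The next windows show the best-scored regions found in both forms of 1 factor and in no other library. None of the 5 motifs matched in them, which says only that these letters are not within 50 bp of these summits. Capitals mark the 11 bases centred on the summit.
Tet2 intron, Nanog only, chr3:133520904-133521004: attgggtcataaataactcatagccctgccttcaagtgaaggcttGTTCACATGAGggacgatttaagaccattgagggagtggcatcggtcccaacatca
Tet3 intron, Oct4 only, chr6:83390522-83390622: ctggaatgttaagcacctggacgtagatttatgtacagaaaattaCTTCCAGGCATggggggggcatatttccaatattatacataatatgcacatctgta
Dnmt3a intron, Sox2 only, chr12:3822852-3822952: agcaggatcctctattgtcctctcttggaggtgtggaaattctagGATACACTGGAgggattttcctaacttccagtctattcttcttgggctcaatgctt
Dnmt3a upstream, Nr5a2 only, chr12:3794257-3794357: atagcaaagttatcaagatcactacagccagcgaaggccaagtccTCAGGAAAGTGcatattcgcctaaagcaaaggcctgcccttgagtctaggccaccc

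Matches were few in the windows as a whole. The NR5A letters were found at 13 of 110 summits in native Nr5a2 (11.8%, against 8.02% of all its peaks) and at 5 of 66 in Nr5a2BiD (7.6%, against 6.16%). The octamer was found at 4 of 64 summits in Oct4BiD (6.2%, against 9.72%) and at 1 of 34 in native Oct4 (2.9%, against 4.17%). The SOX letters were found at 1 of 27 summits in native Sox2 (3.7%, against 1.9%) and at 1 of 89 in Sox2BiD (1.1%, against 3.29%). NANOG letters were found at 1 of 50 summits in NanogBiD (2.0%, against 2.55%) and at 0 of 46 in native Nanog (against 1.7%). These shares rest on so few matches that an order among them is not read. AP-1 was found at 2 of 46 summits in native Nanog (4.3%, against 13.89% of all its peaks), 7 of 50 in NanogBiD (14.0%, against 11.39%), 3 of 34 in native Oct4 (8.8%, against 6.66%) and 2 of 64 in Oct4BiD (3.1%, against 5.53%). It was found at 1 of 27 in native Sox2 (3.7%, against 12.43%), 7 of 89 in Sox2BiD (7.9%, against 12.39%), 7 of 110 in native Nr5a2 (6.4%, against 7.92%) and 9 of 66 in Nr5a2BiD (13.6%, against 10.09%). The member share was thus below that of the library in 5 libraries and above it in 3.

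**Figure D1:**
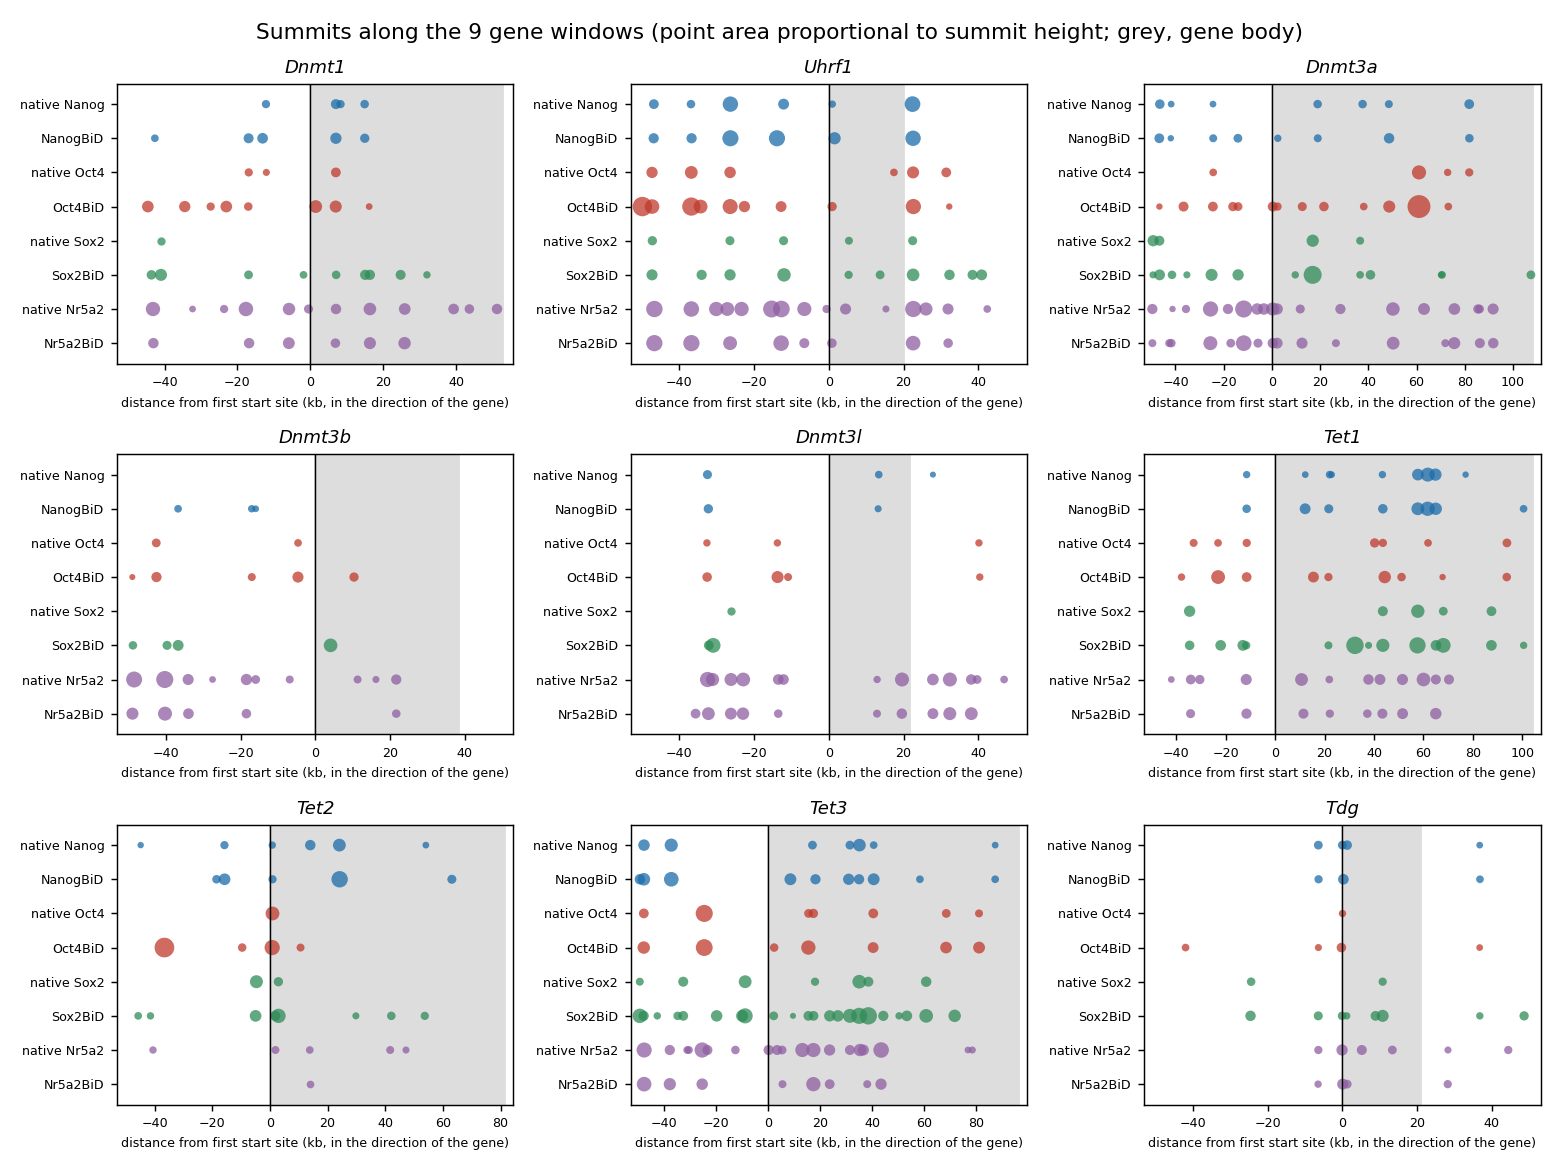
Each panel is 1 gene, the horizontal axis is the distance of a summit from the first annotated start site in kb along the gene, and each row is 1 library. Point area is proportional to summit height in tags, the grey band is the gene body, and the panel of Dnmt3b shows no summit within 2 kb of the start site.

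Summits in the 9 windows numbered 110 in native Nr5a2, 89 in Sox2BiD, 66 in Nr5a2BiD, 64 in Oct4BiD, 50 in NanogBiD, 46 in native Nanog, 34 in native Oct4 and 27 in native Sox2. Per the study's reporting form, native Sox2 was also the library with the most read pairs, and Oct4BiD the one with the fewest. Per 10000 peaks of the library the order was native Nr5a2 with 10.2 (8.37 to 12.27), Nr5a2BiD with 8.66 (6.70 to 11.02), Sox2BiD with 7.38 (5.93 to 9.08), Oct4BiD with 6.81 (5.25 to 8.70), NanogBiD with 6.60 (4.90 to 8.70), native Nanog with 6.26 (4.58 to 8.35), native Oct4 with 6.21 (4.30 to 8.67) and native Sox2 with 4.64 (3.06 to 6.75). Each neighbouring pair in this order had overlapping intervals. The Nr5a2 libraries held 36.2% of the summits in these windows and 27.9% of all peaks. The median gene of the list had 12 summits in native Nr5a2, where the median protein-coding gene had 8. The medians were 8 against 5 in Nr5a2BiD, 9 against 6 in Sox2BiD and 7 against 5 in Oct4BiD. They were 6 against 4 in native Nanog and 5 against 4 in NanogBiD. In native Oct4 both were 3, and in native Sox2 both were 2. A higher median than that of coding genes was thus not particular to Nr5a2.

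**Figure D2:**
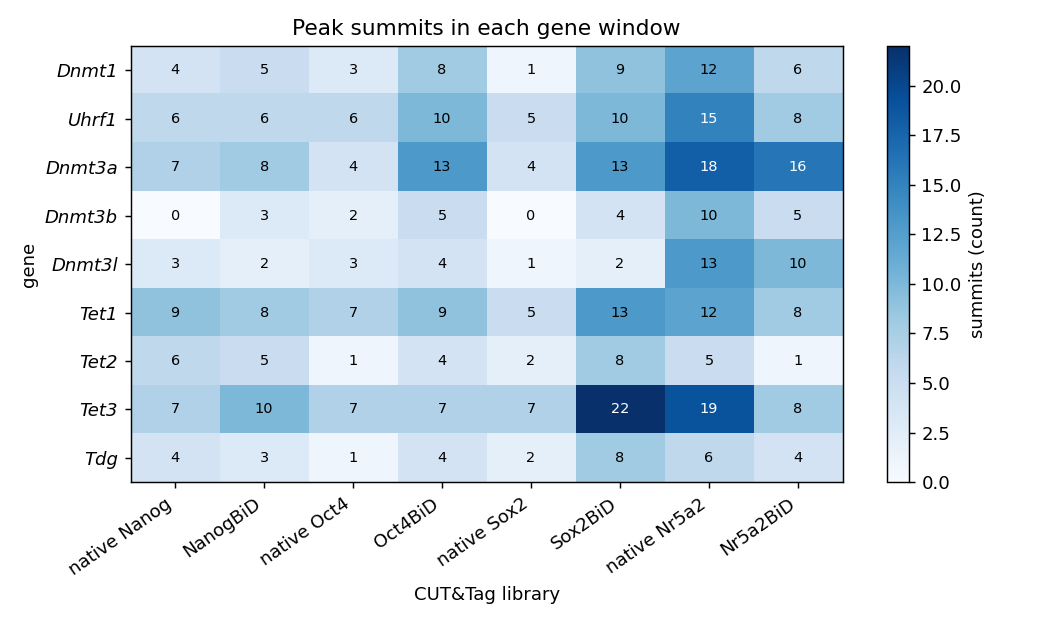
Peak summits (count) in the window of each gene (rows) in each library (columns), with darker blue for more summits. Tet3 in Sox2BiD, with 22, is the highest cell, and Dnmt3b has 0 in native Nanog and native Sox2.

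Dnmt1 (ENSMUSG00000004099.16, mm10 chromosome 9, 20907209 to 20959888, minus strand) encodes the maintenance methyltransferase. Its window held 4 summits in native Nanog, 5 in NanogBiD, 3 in native Oct4, 8 in Oct4BiD, 1 in native Sox2, 9 in Sox2BiD, 12 in native Nr5a2 and 6 in Nr5a2BiD. Dnmt1 is known to have an oocyte start site upstream of the one used in somatic cells. Around the group of 3 annotated starts 7265 bp into the gene, 7 libraries had a peak, all but native Sox2. Its heights were 22 tags in native Nanog, 28 in NanogBiD, 21 in native Oct4, 32 in Oct4BiD, 16 in Sox2BiD, 24 in native Nr5a2 and 20 in Nr5a2BiD. The first start site had a summit within 2 kb in 3 libraries only, Oct4BiD, Sox2BiD and native Nr5a2. The bases around the inner starts were 67.1% G and C with an observed-to-expected CG ratio of 0.70, and those around the first start 53.1% with a ratio of 0.11, over 250 bp on each side. Of the 48 summits in the Dnmt1 window, 13 lay at the start sites of its neighbours Mrpl4 and S1pr2.

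Uhrf1 (ENSMUSG00000001228.14, mm10 chromosome 17, 56303321 to 56323486, plus strand) encodes the protein that recruits DNMT1 to newly copied DNA. Its window held 6 summits in native Nanog, 6 in NanogBiD, 6 in native Oct4, 10 in Oct4BiD, 5 in native Sox2, 10 in Sox2BiD, 15 in native Nr5a2 and 8 in Nr5a2BiD. Few of these belonged to Uhrf1 by distance. Of the 66, only 10 lay in the gene body, 5 lay at its own start sites and 31 lay at the start sites of Fem1a, Kdm4b, Plin3 and Ticam1. At its own start the summit height was 12 tags in native Nanog, 33 in NanogBiD, 19 in Oct4BiD, 15 in native Nr5a2 and 20 in Nr5a2BiD. Native Oct4 and both Sox2 libraries had no summit there, and their nearest ones were 16328, 4295 and 4217 bp away. The summits of the 5 libraries at the start were spread over 2148 bp, however. From the first start they lay at 919 bp in native Nanog, 1542 in NanogBiD, 888 in Oct4BiD, -606 in native Nr5a2 and 834 in Nr5a2BiD. For Nanog and Nr5a2 the heights of the forms are thus not from the same position. The window also held 3 of the 5 regions with a peak in all 8 libraries, each within 2 kb of a neighbour's start. Capitals mark CG dinucleotides in the best-scored summit of each.
Uhrf1 window, near Fem1a, chr17:56256613-56256713: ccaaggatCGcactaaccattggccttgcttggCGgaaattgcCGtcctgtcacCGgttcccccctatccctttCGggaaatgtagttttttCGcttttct
Uhrf1 window, near Kdm4b, chr17:56325652-56325752: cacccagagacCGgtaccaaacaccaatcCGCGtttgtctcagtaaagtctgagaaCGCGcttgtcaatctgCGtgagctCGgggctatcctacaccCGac
Uhrf1 window, near Ticam1, chr17:56276949-56277049: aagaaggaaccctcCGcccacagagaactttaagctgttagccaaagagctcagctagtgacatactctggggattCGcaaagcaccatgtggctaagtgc

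These windows hold 6, 8 and 2 CG dinucleotides, and their summits were 147, 360 and 213 bp from the nearest coding start. Near Kdm4b, which encodes a histone demethylase, heights ran from 18 tags in native Sox2 to 58 in native Nr5a2. The octamer-bearing region 36.8 kb upstream of Uhrf1, by contrast, was 9645 bp or more from any coding start. Its heights were 16 tags in native Nanog, 23 in NanogBiD, 36 in native Oct4, 73 in Oct4BiD, 53 in native Nr5a2 and 58 in Nr5a2BiD. Neither Sox2 library had a peak there.

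Dnmt3a (ENSMUSG00000020661.15, mm10 chromosome 12, 3806007 to 3914443, plus strand) encodes a de novo methyltransferase with a long first intron, and a shorter form known from pluripotent and germ cells starts inside the gene. Its window held 7 summits in native Nanog, 8 in NanogBiD, 4 in native Oct4, 13 in Oct4BiD, 4 in native Sox2, 13 in Sox2BiD, 18 in native Nr5a2 and 16 in Nr5a2BiD. The Nr5a2 libraries together held 41.0% of its 83 summits. The best score of any member peak was in its intron, 16.9 kb into the gene, where Sox2BiD had 71 tags with a score of 876 and native Sox2 33 tags with a score of 398. No other library had a peak in that region, whose summit sequence is the Sox2-only window above. Upstream by 11.7 kb, native Nr5a2 had 64 tags with a score of 627 and Nr5a2BiD 54 tags with a score of 460, again with no other library. The highest summit of any member, 115 tags in Oct4BiD against 44 in native Oct4, lay near a start 60184 bp into the gene. That start is the end of 1 transcript model marked as incomplete, so it may not be a true start site. Native Nr5a2 had 31 tags in the same region. Around the starts 520 and 1051 bp into the gene, 4 libraries had a peak, NanogBiD, Oct4BiD, native Nr5a2 and Nr5a2BiD. There the highest summit was 38 tags, in native Nr5a2. Starts of 2 transcript models not marked as incomplete lay 85729 bp into the gene. Near them native Nr5a2 had 19 tags and Nr5a2BiD 22, and no other library had a peak. The shorter form was not assigned to any of these starts.

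Dnmt3b (ENSMUSG00000027478.15, mm10 chromosome 2, 153649450 to 153687730, plus strand) encodes the other de novo enzyme, which pluripotent cells express highly. It was the only member without a promoter peak in any library. Its window held 0 summits in native Nanog, 3 in NanogBiD, 2 in native Oct4, 5 in Oct4BiD, 0 in native Sox2, 4 in Sox2BiD, 10 in native Nr5a2 and 5 in Nr5a2BiD. The bases around its start were 77.6% G and C with an observed-to-expected CG ratio of 1.03, a composition at which, in all libraries but native Sox2, most coding genes had a promoter peak (given below). The nearest summits were in its first 5 kb in Sox2BiD, 3918 bp from a start with 41 tags, and upstream in native Oct4 (4618 bp, 13 tags) and Oct4BiD (4636 bp, 27 tags). Of its 29 summits, 51.7% were in the Nr5a2 libraries. The most recurrent region, 40.3 kb upstream, had summits spread over 2888 bp. It had 64 tags in native Nr5a2, 43 in Nr5a2BiD, 17 in native Oct4, 23 in Oct4BiD and 18 in Sox2BiD. It was 22940 bp or more from the start of Commd7, the nearest coding gene.

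Dnmt3l (ENSMUSG00000000730.13, mm10 chromosome 10, 78041947 to 78063622, plus strand) encodes the cofactor of the de novo enzymes. Its window held 3 summits in native Nanog, 2 in NanogBiD, 3 in native Oct4, 4 in Oct4BiD, 1 in native Sox2, 2 in Sox2BiD, 13 in native Nr5a2 and 10 in Nr5a2BiD. Nr5a2 libraries held 60.5% of the 38, the highest share of any member, whereas they held 18.8% at Tet2, the lowest. The first start had no peak in any library. The group of 3 starts 13388 bp into the gene had 13 tags in native Nanog, 11 in NanogBiD, 12 in native Nr5a2 and 14 in Nr5a2BiD, and no peak in the other 4 libraries. Both Nr5a2 forms, and no other library, had a peak 19.5 kb into the gene (43 tags native, 24 BiD), where the NR5A window above lies, and another 22.9 kb upstream (42 and 34 tags).

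Tet1 (ENSMUSG00000047146.17, mm10 chromosome 10, 62804570 to 62908996, minus strand) encodes a TET enzyme that is abundant in pluripotent cells and is known to use more than 1 start site. Its window held 9 summits in native Nanog, 8 in NanogBiD, 7 in native Oct4, 9 in Oct4BiD, 5 in native Sox2, 13 in Sox2BiD, 12 in native Nr5a2 and 8 in Nr5a2BiD. No library had a summit within 2 kb of the first start. A pair of starts 21578 bp into the gene, in 62.1% G and C, had a peak in 6 libraries, all but native Oct4 and native Sox2, with at most 18 tags. The promoter peak of native Oct4 lay elsewhere, near starts of incomplete models 94456 bp into the gene. Inside the gene, 43.6 kb from the first start and 13456 bp or more from any coding start, all 8 libraries had a peak. Its heights were 12 tags in native Nanog, 20 in NanogBiD, 15 in native Oct4, 34 in Oct4BiD, 22 in native Sox2, 38 in Sox2BiD, 26 in native Nr5a2 and 22 in Nr5a2BiD. In each of the first 3 factors the BiD form was the higher, and in Nr5a2 the native form was. The summits of this region were spread over 1934 bp, however. Native and BiD summits were at 62865387 and 62864624 for Oct4, and at 62866558 and 62865574 for Nr5a2. For these factors the heights of the forms are thus not from the same position. At 57.8 kb, Sox2BiD had 58 tags with a score of 849 and native Sox2 39 with a score of 385, beside 30 and 36 tags in native Nanog and NanogBiD. At 32.3 kb, Sox2BiD had 67 tags with a score of 624, its best-scored region with no peak in any other library.

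Tet2 (ENSMUSG00000040943.12, mm10 chromosome 3, 133463679 to 133545139, minus strand) encodes a TET enzyme without the CXXC domain found in Tet1. Its window held 6 summits in native Nanog, 5 in NanogBiD, 1 in native Oct4, 4 in Oct4BiD, 2 in native Sox2, 8 in Sox2BiD, 5 in native Nr5a2 and 1 in Nr5a2BiD. At its start the height was 12 tags in native Nanog, 15 in NanogBiD, 42 in native Oct4, 51 in Oct4BiD, 23 in Sox2BiD and 14 in native Nr5a2, with no promoter peak in native Sox2 or Nr5a2BiD. The Oct4 libraries were thus the highest at the start, although they had few other summits in the window. Summits of the Nanog and Oct4 libraries lay within 139 bp of a coding start there. Those of Sox2BiD and native Nr5a2 lay 1078 and 1157 bp from one, and the Sox2BiD peak had a score of 51, near the lowest of 50. Both Nanog forms, and no other library, had a peak in the intron 24.1 kb from the start, with 36 tags and a score of 341 in native Nanog and 59 tags and a score of 676 in NanogBiD. Both Sox2 forms alone had a peak 4.8 kb upstream, with 37 tags in native Sox2 and 30 in Sox2BiD. Tet2 therefore had separate strong regions for Nanog, for Sox2 and, 36.6 kb upstream, for Oct4BiD.

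Tet3 (ENSMUSG00000034832.15, mm10 chromosome 6, 83362373 to 83459084, minus strand) encodes the TET enzyme of the zygote and of many differentiated cells. Its window held 7 summits in native Nanog, 10 in NanogBiD, 7 in native Oct4, 7 in Oct4BiD, 7 in native Sox2, 22 in Sox2BiD, 19 in native Nr5a2 and 8 in Nr5a2BiD. The start 17409 bp into the gene had a peak in all 8 libraries, with 17 tags in native Nanog, 23 in NanogBiD, 19 in native Oct4, 45 in Oct4BiD, 15 in native Sox2, 21 in Sox2BiD, 44 in native Nr5a2 and 45 in Nr5a2BiD. Summits of this region were spread over 2737 bp, however. The 45 tags of Oct4BiD were at 83443609, which is 1934 bp from that start. By contrast, the 19 tags of native Oct4 were 12 bp from it. Native Oct4 had another summit, of 17 tags, at 83443535. For Oct4 the listed heights of the forms are thus not from the same position. The first start had a summit only in native Nr5a2. Upstream by 24.6 kb, in an intron of Dguok, native Oct4 had 64 tags, Oct4BiD 62, native Nr5a2 51 and Nr5a2BiD 29. Upstream by 37.6 kb, native Nanog had 38 tags, NanogBiD 47, native Nr5a2 23 and Nr5a2BiD 33. In either region the peaks of Nr5a2 overlapped those of 1 other factor, but these summits lay apart. In the first they were at 83483727 in both Oct4 libraries and at 83484515 in both Nr5a2 libraries. In the second they were at 83496436 in native Nanog, 83496420 in NanogBiD, 83496995 in native Nr5a2 and 83496983 in Nr5a2BiD.

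Tdg (ENSMUSG00000034674.18, mm10 chromosome 10, 82629828 to 82650799, plus strand) encodes the glycosylase that removes oxidised methylcytosine. Its window held 4 summits in native Nanog, 3 in NanogBiD, 1 in native Oct4, 4 in Oct4BiD, 2 in native Sox2, 8 in Sox2BiD, 6 in native Nr5a2 and 4 in Nr5a2BiD. Its first start region had a peak in 7 libraries, with 20 tags in native Nanog, 25 in NanogBiD, 12 in native Oct4, 20 in Oct4BiD, 16 in Sox2BiD, 28 in native Nr5a2 and 27 in Nr5a2BiD. Native Sox2 was the exception. Its only promoter summit, of 15 tags, lay 818 bp from an inner start that belongs to a transcript model marked as incomplete. Sox2BiD had 32 tags in that region, and no library of another factor had a peak there.

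Across the 9 genes, a promoter peak (a summit within 2 kb of a coding start) was found at 7 genes in native Nanog and 8 in NanogBiD, against 49.4% and 52.7% of all coding genes. It was found at 6 genes in native Oct4 and 7 in Oct4BiD (36.6% and 53.9%), at 2 in native Sox2 and 5 in Sox2BiD (22.2% and 50.3%), and at 8 in native Nr5a2 and 7 in Nr5a2BiD (60.7% and 51.0%). In every library the list had as many or more such genes as that share of 9, and its genes have between 3 and 13 coding start sites each, any of which counts. Tet3 and Tdg had one in all 8 libraries, Tet1 and Dnmt1 in 7, Tet2 in 6, Dnmt3a and Uhrf1 in 5, Dnmt3l in 4 and Dnmt3b in 0. Of all coding genes, 15.38% had one in all 8 and 26.22% in none. With the first start alone, at most 6 members had a peak, in native Nr5a2. A split by base composition was added after the data were seen. Each gene was judged by its 1 start with the highest observed-to-expected CG ratio. That start was rich in CG dinucleotides at 7 members and 11905 coding genes. For Tet1 it had a ratio of 0.83 in 43.9% G and C, so Tet1 was not counted. Its pair of starts 21578 bp into the gene, with a ratio of 0.64 in 62.1% G and C, was not judged. Between 32.3% (native Sox2) and 85.5% (native Nr5a2) of those 11905 coding genes had a promoter peak. Among the 7 members the number was 2 in native Sox2 and 4 to 6 in the other libraries. In both sets a peak near any coding start of the gene counted, not only one near the judged start. The native Sox2 peak at Tdg, for example, lay near an inner start with a ratio of 0.54 in 47.3% G and C.

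**Figure D3:**
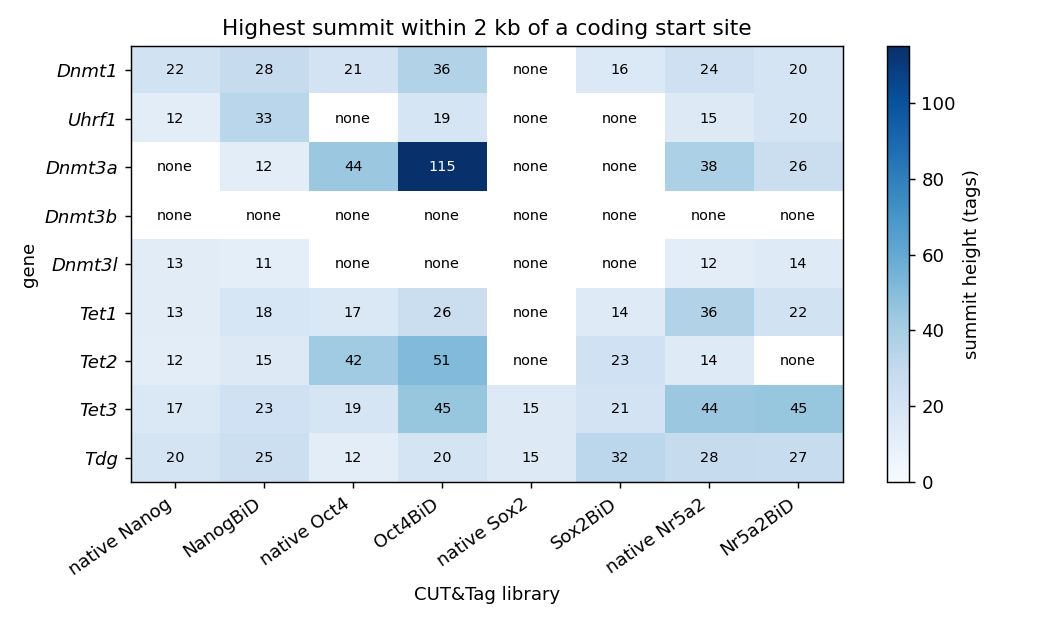
Height (tags, unscaled) of the highest summit within 2 kb of a coding start site, by gene (rows) and library (columns), with "none" where there is no such summit. The row of Dnmt3b is empty, the column of native Sox2 holds 15 tags at Tet3 and at Tdg only, and the darkest cell is the 115 tags of Oct4BiD at an incomplete start of Dnmt3a.

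The question put to each factor was whether the BiD form had more or fewer summits at these genes than the native form. For Sox2 the sum was 27 in the native form and 89 in the BiD form, a log2 ratio of 1.72 (1.09 to 2.399), and all 9 genes were higher. The Sox2BiD list as a whole was longer by a log2 ratio of 1.05, and per 10000 peaks the ratio at these genes was 0.67 (0.03 to 1.35). For Oct4 the log2 ratio was 0.91 (0.29 to 1.56), beside 0.78 for the whole list, with 8 genes higher and Tet3 equal. For Nanog it was 0.12 (-0.49 to 0.73), beside 0.04, with 4 genes higher and 4 lower. For Nr5a2 it was -0.74 (-1.20 to -0.28), beside -0.50, with all 9 genes lower. Per 10000 peaks the ratio was 0.08 (-0.53 to 0.69) for Nanog, 0.13 (-0.49 to 0.78) for Oct4 and -0.23 (-0.70 to 0.22) for Nr5a2, each with an interval that held 0. The differences of Oct4 and Nr5a2 were thus not told apart from the length of the peak lists. Among the 50000 best-scored peaks of each list the log2 ratio was 0.22 for Oct4, 0.47 for Sox2 and -0.20 for Nr5a2. Medians of single genes with at least 4 summits were also taken, with a small constant added to each count. For Sox2 the median was 1.68 over members and 1.22 over coding genes. The latter lay inside the interval of the sum. That interval is for a ratio of summed counts without a constant, however, so it is not an interval for these medians. These medians were 1.14 and 0.82 for Oct4, -0.08 and 0.18 for Nanog, and -0.87 and -0.51 for Nr5a2.

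**Figure D4:**
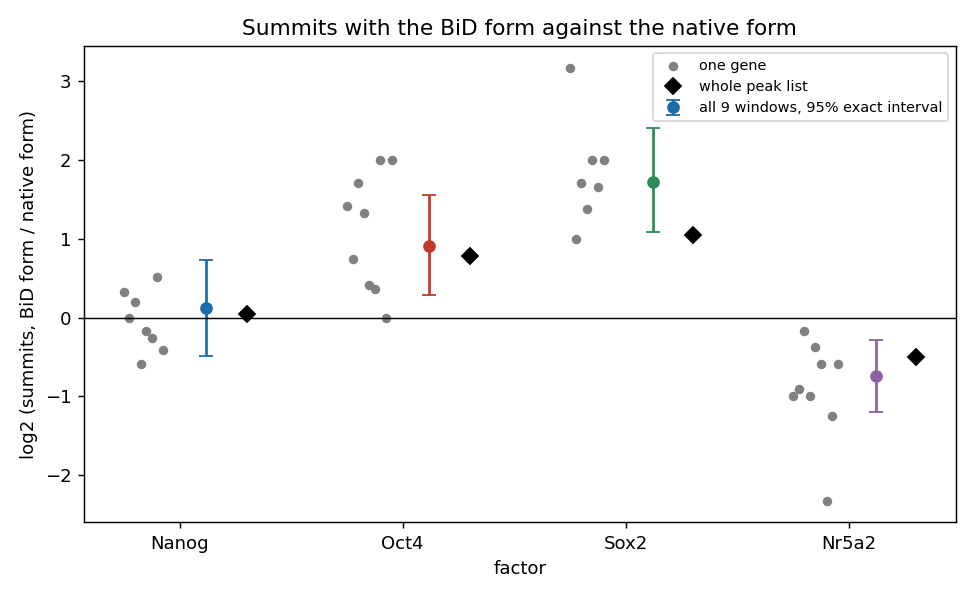
Log2 ratio of summits in the BiD form over the native form (vertical axis) for each factor. Grey points are single genes with at least 4 summits in both forms together and at least 1 in the native form, coloured points are the sum over 9 genes with exact 95% intervals for counting error, and black diamonds are the whole peak lists. The Sox2 interval lies above its diamond but holds 1.22, the median log2 ratio of single coding genes (not drawn). That median has a constant added to each count, so it is not the same measure as the sum. The Nr5a2 points all lie below 0.

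By a 2-fold difference, counted for genes with at least 4 summits in both forms together, 8 of 8 members were higher in Sox2BiD than in native Sox2, where 73.8% of all coding genes were. In Oct4BiD 5 of 9 were higher (Tet2, Dnmt1, Dnmt3a, Dnmt3b and Tdg), against 49.0% of coding genes. In Nr5a2BiD 4 of 9 were lower (Tet2, Tet3, Dnmt1 and Dnmt3b), against 21.2%. In NanogBiD 0 of 8 were higher, against 10.2%, and 0 were lower, against 2.91%. In the rarer directions, 0 members were lower in Oct4BiD (0.761% of coding genes), 0 lower in Sox2BiD (0.157%) and 0 higher in Nr5a2BiD (0.309%). Per 10000 peaks only 2 genes stayed at 2-fold in Sox2BiD, 2 in Oct4BiD and 1 in Nr5a2BiD.

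Overlapping peaks were joined into 200 regions, of which 89 (44.5%) had a peak in 1 library and 5 (2.5%) in all 8. Over the genome these shares were 46.04% and 1.49%. The most single-library regions were those of native Nr5a2 (35), Sox2BiD (28) and Oct4BiD (14), the 3 longest lists, and native Sox2 had 0. Of the 18 regions with peaks in 6 or more libraries, 15 lay within 2 kb of a coding start, 5 at a member and 10 at a neighbouring gene. The other 3 were the Tet1 intron at 43.6 kb, the region 24.5 kb upstream of Dnmt3a with peaks in 7 libraries, and the octamer-bearing region upstream of Uhrf1. Only 10.1% of single-library regions lay at a start, and over the genome the shares were 43.0% for 6 or more libraries and 4.7% for 1. The windows were drawn around genes, which by itself places more of their regions near starts. With any number of libraries the share was 19.5% in the windows and 7.7% over the genome.

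**Figure D5:**
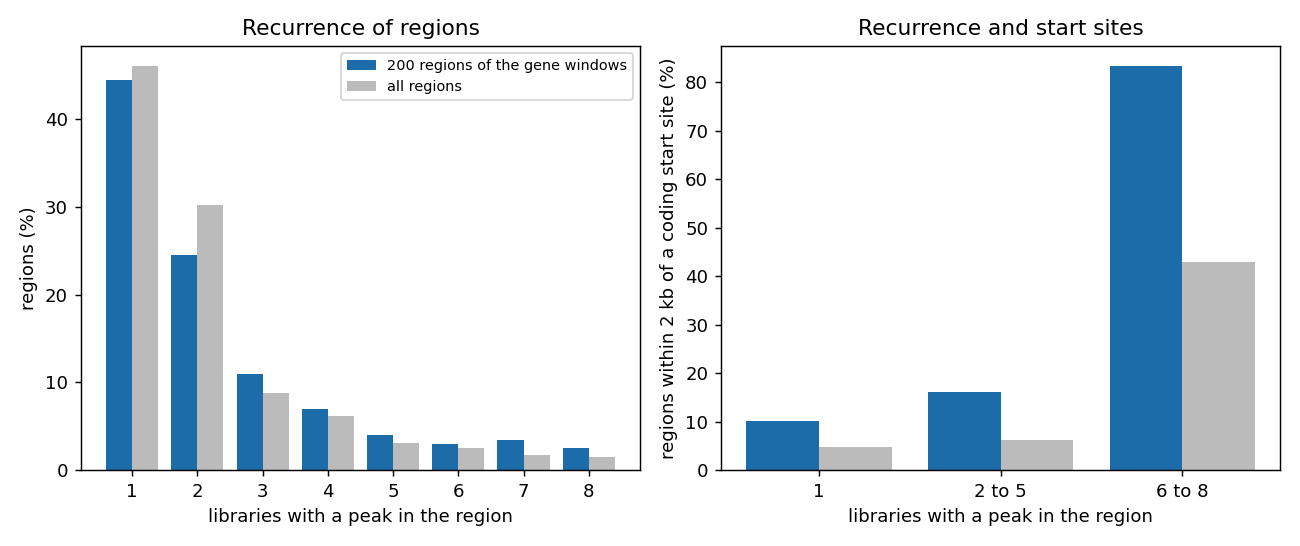
Left, share of regions (%) by the number of libraries with a peak, for the 200 regions of the gene windows (blue) and all regions of the genome (grey). Right, share of regions (%) within 2 kb of a coding start site in 3 classes of recurrence, which is 83.3% for member regions found in 6 to 8 libraries and 10.1% for those found in 1. The windows were drawn around genes, and with any number of libraries the share is 19.5% in them and 7.7% over the genome (not drawn).

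Regions with a peak in both forms, as a share of those with a peak in either, were the most frequent for Nanog, at 67.27% (53.29 to 79.32), followed by Nr5a2 at 52.21% (42.61 to 61.70), Oct4 at 38.57% (27.17 to 50.97) and Sox2 at 29.89% (20.54 to 40.65). Genome-wide shares were, in the same order, 55.83%, 55.47%, 37.07% and 39.27%, and each lay inside the interval of the members. At these genes, 26 of the 27 native Sox2 regions were also found in Sox2BiD, and 60 regions were found in Sox2BiD without native Sox2. Over the genome 86.45% of native Sox2 regions were found in Sox2BiD, and 68733 regions were in the BiD form only against 7756 in the native form only. For Nr5a2, 48 member regions were in the native form only and 6 in the BiD form only, beside 41498 and 10273 over the genome. Both imbalances thus had the direction of the whole lists. Regions found in both forms of 1 factor and in no other numbered 18 for Nr5a2 (9.0% of member regions, against 10.05% of all), 10 for Sox2 (5.0%, against 6.62%), 4 for Nanog (2.0%, against 3.78%) and 4 for Oct4 (2.0%, against 5.03%).

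Most summits lay away from exons, with 300 of 486 (61.7%) in introns and 124 (25.5%) between genes. In 271 the nearest coding start was that of the member itself, and 87 lay at the start of another gene. The bases around the member summits were richer in G and C than those of the library in each of the 8 libraries, for example at a median of 53.5% against 50.5% in native Nr5a2 and 46.5% against 42.6% in Sox2BiD. Whether this richness bears on the counts was not tested.

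Over the 8 libraries, which differ in depth and peak number, the counts per 10000 peaks of Dnmt1 and Dnmt3b were the most alike (Pearson r = 0.89) and those of Tet2 and Dnmt3l the least (r = -0.51). Of 11289 other coding genes with at least 40 summits, Kcnj4 (r = 0.987), Cers1 (0.983) and Nacad (0.983) followed the sum of the 9 genes most closely. These are descriptions over 8 points.

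A wider list of 31 genes of the same pathway holds readers of methylation, helpers of methylation and of TET, and genes of deamination and repair. With at least 2-fold differences, 23 of 30 were higher in Sox2BiD, 18 of 27 in Oct4BiD and 5 of 30 in NanogBiD, and 5 of 29 were lower in Nr5a2BiD and 2 of 30 in NanogBiD. In the same order, the shares of all coding genes were 73.8%, 49.0%, 10.2%, 21.2% and 2.91%. Promoter peaks were found at 25 and 27 of the 31 in native Nanog and NanogBiD (80.6% and 87.1%, against 49.4% and 52.7% of all coding genes). For Oct4 the numbers were 19 and 29 (61.3% and 93.5%, against 36.6% and 53.9%). For Sox2 they were 13 and 27 (41.9% and 87.1%, against 22.2% and 50.3%). For Nr5a2 they were 27 and 23 (87.1% and 74.2%, against 60.7% and 51.0%). Genes with a promoter peak in all 8 libraries included Mbd3 and Mbd4, which encode proteins of the methyl-CpG-binding domain family, Ogt, which encodes a partner of TET, and Parp1 and Xrcc1 of base repair. Dppa3, which encodes a protein that protects against methylation and against demethylation in the zygote, had 1 summit in native Sox2 and 5 in Sox2BiD, whereas native Nr5a2 had 6 there and Nr5a2BiD 2.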

How the data were processed

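The deposited files are 1 list of peaks and 1 of summits for each of 8 CUT&Tag libraries. According to the methods of the study and the processing notes, Trim Galore 0.6.4 was used for trimming, bowtie2 2.4.5 for mapping to mm10, SAMtools 1.16.1 for removing repetitive, poorly mapped and mitochondrial reads, and MACS 1.4.2 for peak calling. No control library is named. As deposited, a peak has a score, its p-value as a negative log10 multiplied by 10 (lowest 50). The summit height deposited by the authors is a signal in tags that was not scaled to depth. The methods say that replicates were merged before peak calling, while the study's reporting form says that the experiment was done once. Repeated sequence is left without peaks by the read filter. The lists give no depth, and depth can bear on the number and height of peaks.

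Summits were counted in the gene body or within 50 kb of the first GENCODE M21 start site, and a promoter peak lay within 2 kb of a coding start. Peaks overlapping by at least 1 bp formed a region. A gene with at least 4 summits in both forms and at least a 2-fold difference was counted as higher or lower. Sequences came from the RefSeq GRCm38 genome. A gene was called rich in CG dinucleotides from its 1 start with the highest observed-to-expected ratio. The ratio and the share of G and C were taken in the 250 bp on each side. All 9 members were named. Genes of the wider pathway were eligible for naming only if at least 2-fold and 4 summits apart, or if all 8 libraries had a promoter peak, and those printed are examples. The members, lists and rules were chosen with earlier results of these data known. Intervals are exact (Clopper-Pearson, 95%) and cover counting error only. Since each group has 1 library, no test was run. Scripts used Python 3.11.15, NumPy 2.4.6, pandas 2.3.3, SciPy 1.17.1 and matplotlib 3.10.9 and were tested on simulated data.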

Additional observations from a re-analysis of the deposited data

Results flagged for a closer look

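The sum over the 9 genes stood out for Nr5a2, whose BiD library had fewer summits than the native one. Its log2 ratio, BiD over native, was -0.74, and per 10000 peaks it was -0.23 (-0.70 to 0.22). The values of the 3 other factors were above 0 on both scales. For Nanog, however, the interval held 0 on both scales, with 4 genes higher and 4 lower, and the sign changed in 2 alternatives, and for Oct4 the interval per 10000 peaks held 0. With 1 library for each form the difference was not tested, and peak number moves in the same direction (log2 ratio of the whole lists -0.50).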

How the results depend on the processing

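Of 157 values recomputed with other settings, 121 stayed within the counting interval or within 1.5 times the main count. The sign changed in 2 values, both of the Nanog log2 ratio, whose interval held 0: it was -0.04 with the 50000 best-scored peaks and -0.05 with only summits whose nearest coding start is that of a member. No paired analysis was possible because each group has 1 library and the labels carry no replicate numbers. Leaving out a replicate was impossible for the same reason. Leaving out 1 gene at a time moved the log2 ratio from 0.03 to 0.18 in Nanog, from 0.77 to 1.08 in Oct4, from 1.62 to 1.84 in Sox2 and from -0.88 to -0.65 in Nr5a2.

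Per 10000 peaks the log2 ratio fell to 0.13 for Oct4, 0.67 for Sox2 and -0.23 for Nr5a2, and with the 50000 best-scored peaks to 0.22, 0.47 and -0.20. Genes at 2-fold fell to 2, 2 and 1 per 10000 peaks (Oct4BiD and Sox2BiD higher, Nr5a2BiD lower). With the 50000 best-scored peaks they were 2, 0 and 0, and 2 genes were lower in NanogBiD. With the 20 kb window 3 genes were higher in Oct4BiD, and with the 100 kb window 1 was higher in NanogBiD.

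With the first start only, genes with a promoter peak numbered 3 in native Nanog, 3 in NanogBiD, 2 in native Oct4, 0 in native Sox2, 3 in Sox2BiD and 3 in Nr5a2BiD. With the 50000 best-scored peaks they were 5 in NanogBiD, 1 in native Sox2, 1 in Sox2BiD and 5 in native Nr5a2, and with a score of at least 100 they were 5 in NanogBiD and 0 in native Sox2. Native Sox2 also had 0 within 500 bp and 0 by overlap of the start.

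With summits within 200 bp, the share of regions in both forms was 45.5% for Nanog and 37.5% for Nr5a2, and 1 region was found in all 8 libraries. With the 50000 best-scored peaks the share was 42.9% for Sox2, and 3 regions were in all 8, as with a score of at least 100. The 20 kb window left 2. No value was scaled by sequencing depth.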
